A study of Mus musculus with 2 samples.

Results

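The genes described here are 10 genes of the smooth muscle contractile apparatus, Acta2, Tagln, Tagln2, Cnn1, Cnn2, Myl9, Tpm1, Tpm2, Myh11 and Cald1. They were chosen by symbol, each symbol matched 1 row, and they made up 10 of the 21849 features counted. They were followed in single-cell RNA sequencing of costal-cartilage-derived stem cells (CDSCs), with 1 library of primary cells and 1 library of cells grown in culture and taken at passages 2 to 3. Per the study's methods the cells came from the rib cartilage of newborn mice, either CD45.1 mice or mice that carry the fluorescent reporter ZsGreen, and were sorted for the absence of CD45, a surface protein of blood cells, and the presence of CD51, an integrin. In the labels, however, the tissue of both libraries is bone marrow.

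A barcode was kept as a cell with at least 500 genes, at least 1000 UMIs (unique molecular identifiers, 1 per captured transcript) and at most 10% mitochondrial UMIs. This left 11746 of 11896 primary barcodes with a median of 10027 UMIs and 5338 of 10798 cultured barcodes with a median of 56865 UMIs. Summed over 12 cartilage markers, the primary library stood at 84524 CPM (counts per 1000000 UMIs, the scale used for all levels) and the cultured library at 597 CPM. The cartilage source given in the methods thus had high levels of its markers in the primary library only. The paper also reports lower Sox9 and Acan in the cultured cells. ZsGreen had 60957 UMIs in primary cells and 0 in cultured cells, with a 95% upper limit of 0.0112 CPM there, so the donor line and culture cannot be told apart. With 1 library per group no difference has a replicate check, no test was run, and every interval below is a 95% interval that covers counting error only. Of the barcode sequences, 15 were found among the kept cells of both libraries, and the 10 ratios were computed again without them.

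In smooth muscle, actin filaments slide along filaments of smooth muscle myosin, and phosphorylation of the myosin regulatory light chain switches that motor on. Tropomyosin, calponin and caldesmon lie along the actin filament and regulate how myosin reaches it, and transgelins bind and bundle actin. Many of these genes are read by serum response factor (SRF), which binds the CArG box, and many are also used outside muscle, in fibroblasts that form stress fibres and in myofibroblasts, which are marked by Acta2. Myh11, the smooth muscle myosin heavy chain, is the most restricted of the 10 to mature smooth muscle, whereas Tagln2, Cnn2, Tpm1 and Cald1 are made in many cell types. Gene-level 3′ counts do not separate isoforms, so the smooth muscle and non-muscle forms of Tpm1, Tpm2 and Cald1 were counted together.

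The CArG box consists of CC, 6 bases of A or T, and GG, and it reads the same way on both strands. It was looked for in the RefSeq promoter windows of GRCm38.p6, which run from 250 bases before to 50 bases after a gene's start. A window was held for 8 of the 10 genes, with 2 windows for Cald1. An exact box was present in 1.63% of all 32851 windows, and a box with at most 1 mismatch in 21.1% of them. Cnn2 and Myl9 had an exact box, Acta2, Tpm1 and Cald1 had a box with 1 mismatch, and the windows of Tagln2, Cnn1 and Tpm2 had neither. These matches are a description of letters in a window, and no binding was measured. The distances given are from the RefSeq start of the window, which differs from the GENCODE M21 gene start used for the gene positions further on. Counted from the latter, the Acta2 box lies 133 bases inside the gene, and the boxes shown for Cnn2, Myl9 and Tpm1 begin 40, 117 and 28 bases before it. A stretch around the box is shown for 4 of the genes, to let the exact boxes be set beside those with a mismatch, each on its gene's own strand, with the box in capitals.
Acta2, chr19:34255423-34255482, minus strand, 84 bases before the start, 1 mismatch: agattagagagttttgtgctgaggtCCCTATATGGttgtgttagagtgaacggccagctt
Cnn2, chr10:79988519-79988578, plus strand, 56 bases before the start, exact: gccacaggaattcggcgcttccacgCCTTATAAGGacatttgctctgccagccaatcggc
Myl9, chr2:156775278-156775337, plus strand, 161 bases before the start, exact: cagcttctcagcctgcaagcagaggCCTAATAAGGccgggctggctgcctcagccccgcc
Tpm1, chr9:67049400-67049459, minus strand, 221 bases before the start, 1 mismatch: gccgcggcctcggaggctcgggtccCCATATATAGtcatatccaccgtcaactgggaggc

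All 10 genes had a higher level in the cultured than in the primary library, and 8 of them were at least 4-fold higher. Together they took 0.0761% of all UMIs in primary cells and 0.796% in cultured cells. As background, 9115 genes reached 10 CPM in 1 library or both, of which 10.6% were at least 4-fold higher in the cultured library and 5.73% at least 4-fold lower. Of the contractile genes 9 reached 10 CPM, of which 8 were at least 4-fold higher and none lower, and Myh11 stayed under that level in both libraries. Cnn1, counted among the 8, reached 10 CPM in culture only, with 5.96 CPM in primary cells. The median log2 ratio of cultured over primary was 3.32 over the 10 genes and 0.37 over the 9115 genes. The count of 8 was also found with TMM scaling, which lowered the median of all genes by 0.215 on the log2 scale.

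**Figure D1:**
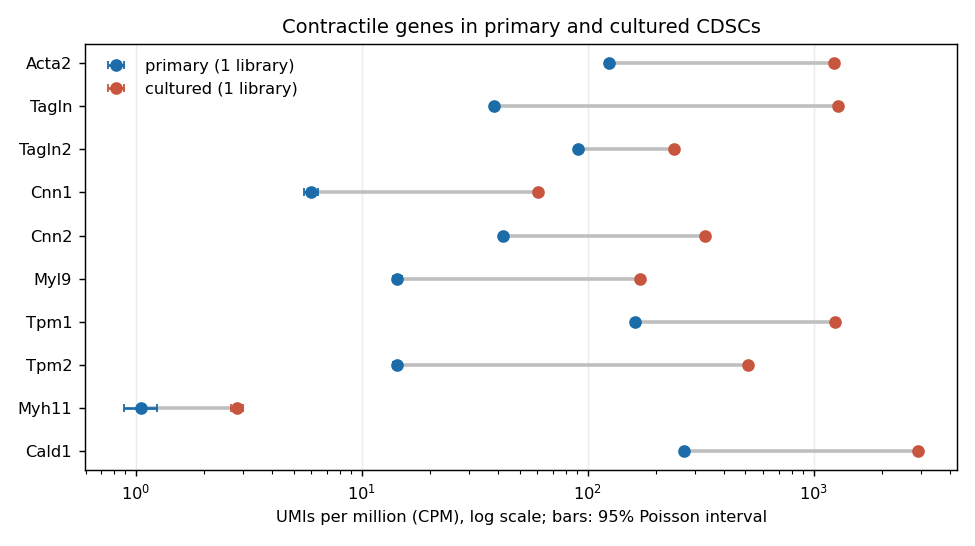
Level of each contractile gene in the primary and the cultured library, in CPM on a log scale, with points for the 2 libraries joined by a grey line and bars for the 95% Poisson interval. Every cultured point lies to the right of its primary point, with the widest gaps for Tpm2 and Tagln and the narrowest for Tagln2 and Myh11.

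Among the filament proteins, Acta2 encodes smooth muscle alpha-actin (chr19:34241090-34255590, minus strand, GRCm38 annotation). It had 16993 UMIs or 124 CPM in primary cells and 405127 UMIs or 1227 CPM in cultured cells. The level was 9.90-fold higher in culture, a log2 ratio of 3.31 with an interval of 3.29 to 3.33. Myh11, its heavy chain motor partner (chr16:14194535-14291372, minus strand), had 145 UMIs or 1.06 CPM in primary cells and 928 UMIs or 2.81 CPM in cultured cells. Its log2 ratio was 1.41 with an interval of 1.16 to 1.67, and it was by far the least abundant of the 10 genes in both libraries. Myl9, the smooth muscle type regulatory light chain on which contraction is switched (chr2:156775420-156781658, plus strand), had 14.4 CPM in primary cells and 171 CPM in cultured cells. Its log2 ratio was 3.57, or 11.9-fold, so the light chain and the actin of smooth muscle were far higher in culture, while the heavy chain that defines this tissue was rare in both libraries.

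The tropomyosins and caldesmon lie along the actin filament. Tpm2, which encodes beta-tropomyosin (chr4:43514711-43523765, minus strand), had 14.3 CPM in primary cells and 516 CPM in cultured cells. Its log2 ratio of 5.17, with an interval of 5.10 to 5.23, was the largest of the 10. Tpm1, which encodes alpha-tropomyosin (chr9:67022590-67049406, minus strand), had 162 CPM in primary cells and 1242 CPM in cultured cells, a log2 ratio of 2.94. The ratio of Tpm1 to Tpm2 UMIs was thus very different in the libraries, since Tpm2 was rare in primary cells and Tpm1 was not. Cald1, caldesmon (chr6:34598500-34775473, plus strand), was the most abundant of the 10 in both libraries, with 268 CPM in primary cells and 2888 CPM in cultured cells. Its log2 ratio was 3.43 and it supplied 35.2% of the UMIs of the 10 genes in primary cells and 36.3% in cultured cells.

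The calponins and transgelins each come as a smooth muscle type and a broadly expressed type. Cnn1, the smooth muscle calponin (chr9:22099216-22109630, plus strand), had 5.96 CPM in primary cells and 60.3 CPM in cultured cells, a log2 ratio of 3.34. Cnn2, its widely expressed relative (chr10:79988584-79996062, plus strand), had 42.1 CPM and 331 CPM, a log2 ratio of 2.98. The interval was 3.24 to 3.44 for Cnn1 and 2.94 to 3.02 for Cnn2, close together but without overlap. This order depended on few cells. Without the cultured cells with high Ptn and Thy1, described below, the log2 ratio was 2.73 for Cnn1 and 2.96 for Cnn2. Tagln, transgelin or SM22-alpha (chr9:45929619-45936058, minus strand), had 38.5 CPM in primary cells and 1282 CPM in cultured cells, a log2 ratio of 5.06. Tagln2 (chr1:172500047-172507380, plus strand), the transgelin of non-muscle and blood cells, had 90.8 CPM and 241 CPM, a log2 ratio of 1.41. Tagln2 was the more abundant transgelin in primary cells and Tagln in cultured cells.

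Shares of cells were compared at 5000 UMIs per cell, drawn at random without replacement, and 787 primary and 795 cultured cells that had fewer were not used. All 10 genes were seen in a larger share of the 4543 cultured than of the 10959 primary cells, as were 65.1% of the 9115 genes with at least 10 CPM. Acta2 was seen in 16.4% of primary cells, with an interval of 15.7 to 17.1%, and in 61.6% of cultured cells, with an interval of 60.1 to 63.0%. Without thinning these shares were 23.8% and 92.1%. Tagln was seen in 8.39% of primary and 68.3% of cultured cells, and Tpm2 in 6.50% and 76.7%. Cald1 and Tpm1 were the only members seen in nearly every cultured cell, at 99.7% and 96.0%, against 59.2% and 38.5% of primary cells. Cnn1 was seen in 1.80% of primary and 10.7% of cultured cells, and Myh11 in 0.374% and 0.748%. The median cell held UMIs of 2 of the 10 genes in the primary and of 6 in the cultured library. No UMI of any of the 10 was seen in 1082 primary cells, 9.87% of them, and in 0 of 4543 cultured cells.

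**Figure D2:**
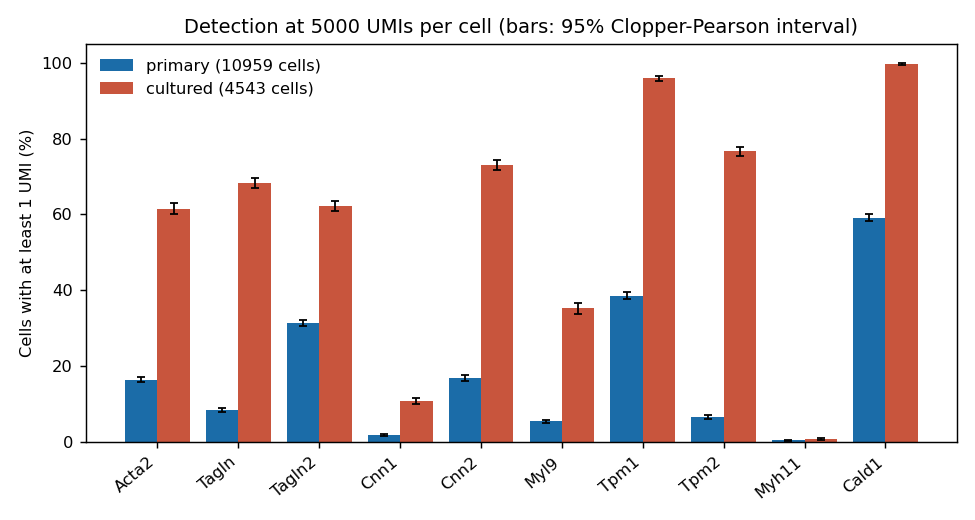
Percentage of cells in which each contractile gene had at least 1 UMI after every cell was thinned to 5000 UMIs, for primary (10959 cells) and cultured cells (4543 cells), with 95% Clopper-Pearson intervals as bars. The cultured bar is the taller for all 10 genes, and both bars stay under 1% for Myh11.

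Free RNA in the droplets can give UMIs to cells that do not make a gene, and cells of other classes give a level to set beside those above, although doublets would do the same and the 2 were not told apart. Tagln2 is also made in blood and endothelial cells and is left out of this check. In the cultured library, 9 haematopoietic-like cells, with all 9 blood cell markers and a median of 35946 UMIs, had Acta2 at 274 CPM, Tagln at 397 CPM and Cald1 at 1221 CPM. After thinning, 4 of these 9 cells had a UMI of Acta2, an interval of 13.7 to 78.8%, so a share of cells near that of the whole library does not by itself show expression in each cell. Before thinning, the 9 cells held 1 UMI of Cnn1 and 0 of Myh11. In the primary library, 26 cells led by mast and endothelial genes, with a median of 9403 UMIs, had Acta2 at 27.3 CPM, and 2 of the 18 deep enough to thin had a UMI of it.

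The cells of each library were clustered with the 10 genes left out, so that the genes did not set the groups, and their levels in the clusters are given as a description. The primary cells fell into 9 clusters of at least 100 cells, all of which had at least 8 of 12 cartilage markers at 1000 CPM or more, and 1 cluster of 290 other cells that was divided again. Acta2 was highest in the cluster of 1640 cells led by Aoc2, Grem1 and Ppa1, at 348 CPM with an interval of 341 to 356, and this cluster held 48.2% of all primary Acta2 UMIs. It was lowest in the cluster of 774 cells led by Bmp3, Tll1 and Sncaip, at 10.5 CPM. After thinning, 43.4% of the cells of the first cluster and 3.18% of the second had a UMI of Acta2. Tagln followed the same order, at 70.7 CPM and 7.44 CPM.

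Cald1 ran the other way among the primary clusters. It was lowest, at 77.9 CPM, where Acta2 was highest, and highest, at 827 CPM, where Acta2 was lowest. A UMI of Cald1 was seen in 26.7% of the thinned cells of the cluster led by Aoc2 and in 94.1% of those of the cluster led by Bmp3. Tpm1 had its peak in a further cluster, the 688 cells led by Slc35f1, Runx3 and Wnt5b, at 620 CPM against 130 CPM in the rest of the library. Among these 9 cartilage clusters Tpm2 was highest, at 32.2 CPM, in the one led by Bmp3. The members thus did not share 1 pattern among the primary cartilage cells. Tagln2 was highest among the 9 in the 186 dividing-like cells, at 165 CPM, and stood at 795 CPM in the 26 cells led by mast and endothelial genes.

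**Figure D3:**
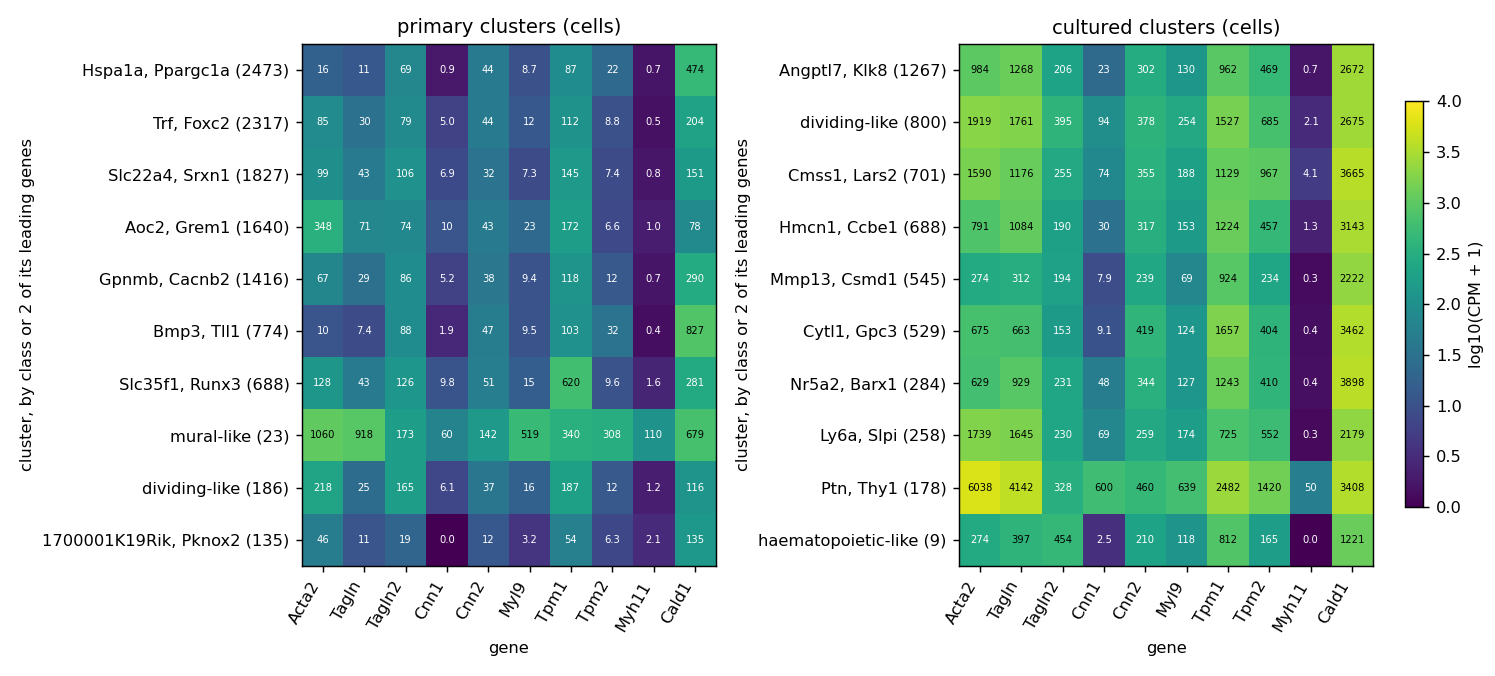
Level of each contractile gene in the clusters of the primary and the cultured library that held at least 100 cells, with the primary mural-like and the cultured haematopoietic-like cells added, coloured by log10(CPM + 1) and with the CPM written in each square. The primary mural-like row and the cultured row labelled Ptn, Thy1 are the brightest in their panels for Tagln, Cnn1, Myl9 and Myh11.

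Among the other primary cells, 23 were mural-like, the class of pericytes and vascular smooth muscle, with 7 of 12 mural markers and led by Rgs5, Higd1b and Abcc9. They also had 8 of 12 cartilage markers at 1000 CPM or more, and free RNA and doublets were not told apart in them. They had Acta2 at 1060 CPM, Tagln at 918 CPM, Myl9 at 519 CPM, Cnn1 at 59.8 CPM and Myh11 at 110 CPM. They made up 0.196% of the cells and held 35 of the 145 primary Myh11 UMIs, 24.1% with an interval of 17.4 to 31.9%. These values rested on few cells, since 3 of the 23 had a UMI of Myh11 and 1 of them held 30 of the 35. That cell also held 220 of the 337 Acta2 UMIs of the 23 cells, 227 of their 292 Tagln UMIs and 121 of their 165 Myl9 UMIs. It had 8174 UMIs in all, with 2 of Notch3 and 0 of Rgs5, Higd1b and Abcc9. The remaining 110 Myh11 UMIs were spread over 89 other cells with at most 6 in a cell. At the higher clustering resolution no mural-like cluster was found and the share could not be given.

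No cultured cluster was mural-like. Summed over the 12 mural markers the level was 436 CPM in primary cells and 159 CPM in cultured cells, 3 of the 12 were higher in culture and none was at 0. Ndufa4l2, at 226 and 45.7 CPM, and Cspg4, at 161 and 40.7 CPM, made up most of these sums. Pdgfrb, at 17.4 and 53.9 CPM, and Notch3, at 0.962 and 4.49 CPM, were higher in culture, Rgs5 stood at 0.919 and 0.527 CPM, and the part of these markers in the higher contractile genes was not tested. The cultured cells with the most contractile transcripts were a cluster of 178 with Ptn, Thy1 and Rpl39l among its leading genes, 3.33% of the cells. Acta2 stood at 6038 CPM in them against 1042 CPM in the rest of the library, and Tagln at 4142 CPM against 1172 CPM. Cnn1 was 15.2-fold higher in them than in the rest, at 600 CPM against 39.6 CPM, so that they held 36.8% of all cultured Cnn1 UMIs. Myh11 stood at 50.1 CPM against 0.994 CPM, and 612 of the 928 cultured Myh11 UMIs, 65.9% with an interval of 62.8 to 69.0%, came from these cells.

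The Myh11 UMIs of this cluster lay in 48 of its 178 cells, with a maximum of 114 in a cell, whereas Acta2 was seen in all 178 before thinning. Cald1, Cnn2 and Tagln2 were 1.19-fold, 1.41-fold and 1.38-fold higher there than in the rest, and Tpm1 was 2.08-fold higher, whereas the fold was 5.79 for Acta2, 4.16 for Myl9, 3.53 for Tagln and 2.95 for Tpm2. Under 4 other ways of clustering, clusters made mostly of these cells held 65.4 to 66.5% of the Myh11 UMIs. Without the 178 cells, cultured Myh11 was not above the primary level, at 0.994 CPM against 1.06 CPM, and its log2 ratio was -0.09. With the 290 other primary cells of the divided cluster left out as well, it stood at 0.994 CPM against 0.796 CPM, a log2 ratio of 0.32. The direction for Myh11 thus depends on which cells are counted. Without the 178 cells alone, the log2 ratio of Cnn1 was 2.73 and that of Acta2 3.07, and 8 of the 10 genes were still at least 4-fold higher.

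In the 800 dividing-like cells Acta2 was 1.81-fold, Tagln2 1.94-fold, Cnn1 1.80-fold and Myl9 1.68-fold higher than in the rest, and Cald1 was 0.910 times the rest. The 545 cells led by Mmp13, Csmd1 and Sfrp4 had the lowest levels among the clusters of at least 100 cells for Acta2, at 274 CPM, for Tagln, at 312 CPM, for Cnn1, at 7.89 CPM, and for Tpm2, at 234 CPM. That Acta2 level was as low as in the haematopoietic-like cells. Over the 8 cultured clusters with at least 100 cells and a median of at least 5000 UMIs, the highest and lowest level differed 76.0-fold for Cnn1, 22.1-fold for Acta2 and 13.3-fold for Tagln. Without the 178 cells with high Ptn and Thy1, the 7 other clusters spanned 11.9-fold for Cnn1, 7.01-fold for Acta2 and 5.64-fold for Tagln. They spanned 2.58-fold for Tagln2, 1.79-fold for Cald1 and 1.75-fold for Cnn2. A cluster of 701 shallow cells with a median of 1187 UMIs had Acta2 at 1590 CPM, and restricting both libraries to cells with at least 5000 UMIs left the count of 8 as it was.

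From cell to cell, Acta2 had the highest Fano factor of the 10 genes in culture, a measure that grows with the mean. At 5000 UMIs per cell its count had a median of 1, a 90th percentile of 16 and a maximum of 201, and the factor, the variance over the mean, was 31.3. The highest 10% of cells held 63.0% of the Acta2 UMIs, against 49.7% for Tagln and 21.4% for Cald1, and 97.4% and 100% for the sparse Cnn1 and Myh11. Cald1 had a median of 13 UMIs, a 10th percentile of 6 and a Fano factor of 4.28. Tagln2 and Cnn2 had Fano factors of 1.51 and 1.62, where counting alone would give 1. Their means were 1.18 and 1.67 UMIs against 14.3 for Cald1, so these factors do not rank the spread of the 3 genes. In the primary library the Fano factor of Acta2 was 9.08 and that of Tagln 10.2, the latter with a maximum of 119 UMIs in a cell.

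Across cultured cells Acta2, Tagln, Cnn1, Myl9 and Tpm2 varied together, Tpm1 did so less, and Myh11, Tagln2, Cnn2 and Cald1 least. Pearson's r over the 4543 thinned cells, which share a library and a depth, was 0.78 for Acta2 and Tagln, 0.73 for Acta2 and Tpm2, 0.71 for Acta2 and Myl9, and 0.70 for Acta2 and Cnn1. Tpm1 had an r of 0.48 with Acta2 and with Tagln and of 0.50 with Myl9. The sparse Myh11 had an r of 0.36 with Acta2, 0.26 with Tagln and 0.23 with Myl9. Acta2 had an r of 0.29 with Cnn2 and of 0.21 with Tagln2 and with Cald1. Of the 45 pairs, 21 had an r over 0.3, and the median was 0.29. Pairs of other genes were not counted in either library, so such counts of pairs have no background. Without the 178 cells with high Ptn and Thy1, 19 pairs were over 0.3 and the r of Acta2 and Tagln was 0.75.

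In primary cells the correlation rested on 1 cell. Over the 10959 thinned cells 13 of 45 pairs had an r over 0.3, with 0.84 for Myl9 and Myh11 and 0.81 for Tagln and Myl9. Without the cell that held 30 Myh11 UMIs, no pair was over 0.3, the highest r was 0.14, for Acta2 and Tagln, and that of Myl9 and Myh11 was 0.00. The sparse counts of primary cells therefore showed little joint variation of these genes.

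**Figure D4:**
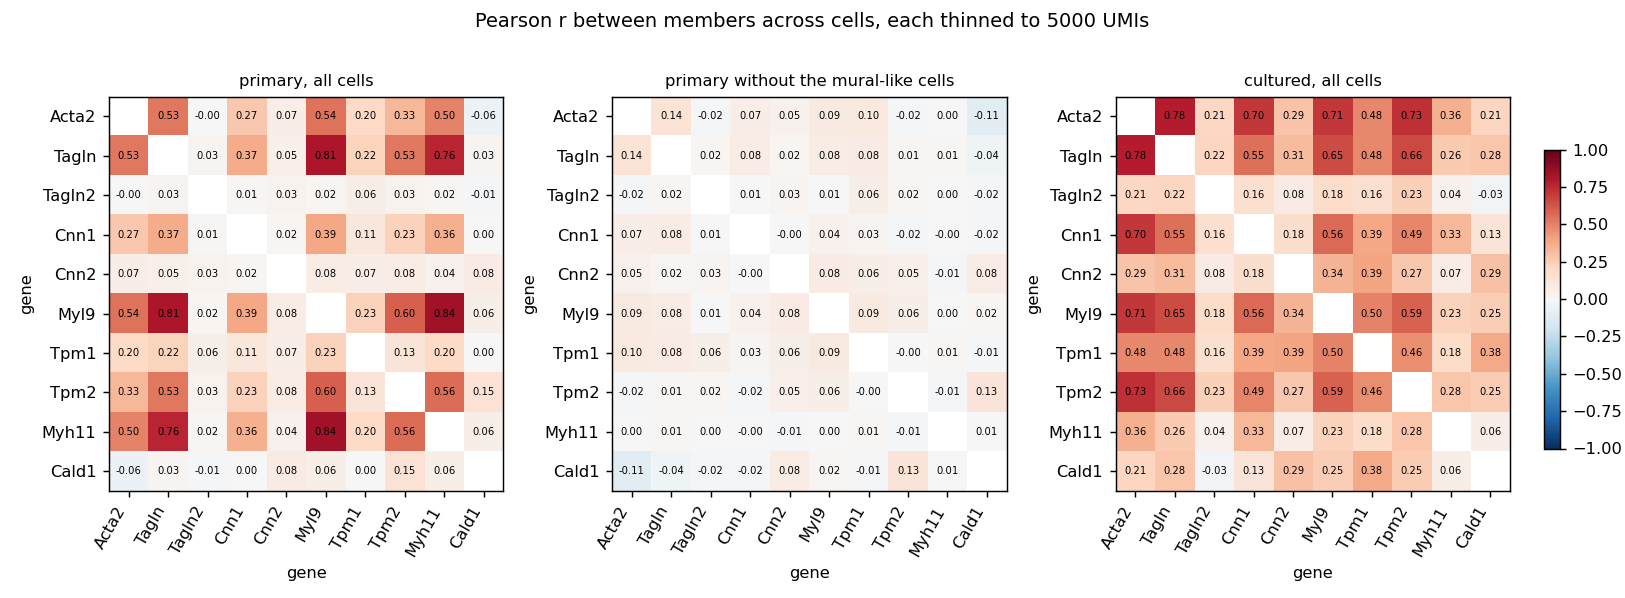
Pearson r between each pair of contractile genes across cells thinned to 5000 UMIs, for all primary cells, for primary cells without the 23 mural-like cells and for all cultured cells, on a colour scale from -1 to 1 with the value written in each square. The squares among Acta2, Tagln, Cnn1, Myl9 and Tpm2 are dark in the cultured panel and fade in the primary panel once the mural-like cells are left out.

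The genes most like the summed counts of the 10 across cultured cells, among 6499 others with a mean of at least 0.1 UMI, were parts of the actin cytoskeleton for the most part. They were Myl6, the essential myosin light chain, with an r of 0.59, then Dstn, an actin depolymerising factor, Csrp1, Actg1, Plpp1, Actb, Lmod1, a smooth muscle leiomodin, and Msrb1, down to an r of 0.40. The lowest were Fth1, a ferritin chain, at -0.27, Mt1 at -0.23, and Tpt1 and Spp1 at -0.21. In primary cells, among 5631 genes, the highest were Crip1 at 0.35, Vim at 0.33, Tmsb4x at 0.21, Lgals1, Rrad, Myl6, S100a11 and Csrp1, the last at 0.16. The matrix genes Sparc, Bgn, Col9a1 and Col9a3 were the lowest, from -0.14 to -0.13. Without the mural-like cells the r of Crip1 was 0.04, that of Rrad 0.00 and that of Vim 0.16. Myl6 and Csrp1 were thus among the highest 8 in each library.

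Relatives of the 10 genes outside smooth muscle are given for comparison. Actb and Actg1, the cytoplasmic actins, had 2601 CPM and 2679 CPM in the primary and 4369 CPM and 2172 CPM in the cultured library, and Acta2 ranked after both in each library, at a level much nearer theirs in culture. Acta1, the skeletal muscle actin, had 15.2 and 15.6 CPM, and Actg2, the enteric smooth muscle actin, 1.31 and 11.6 CPM. Cnn3 was the leading calponin in primary cells, at 215 CPM, and stood at 166 CPM in cultured cells, where Cnn2 was the leading one. The non-muscle heavy chains Myh9 and Myh10 had 168 and 39.0 CPM in primary cells and 769 and 372 CPM in cultured cells, with log2 ratios of 2.19 and 3.26, both larger than that of Myh11. Among these 3 heavy chains the UMIs in culture were thus nearly all of the non-muscle type.

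**Figure D5:**
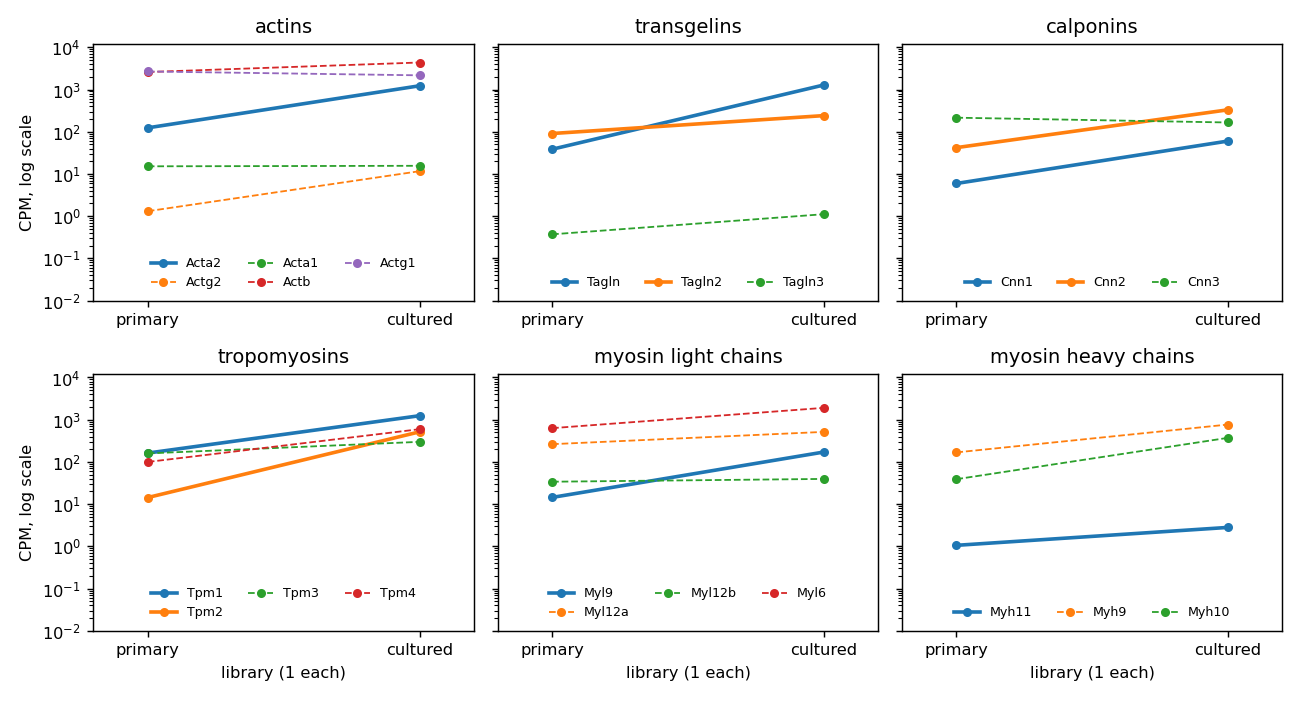
Level in the primary and the cultured library, in CPM on a log scale, of the contractile genes (thick solid lines) and their relatives (thin dashed lines) in 6 gene families. Among the members the lines of Tagln and Tpm2 are the steepest, those of Actg1 and Cnn3 slope slightly down, and Myh11 lies far under Myh9 and Myh10 in both libraries.

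Other genes of the pathway were counted in lists by the same 4-fold rule, to be read against the 10.6% of all genes that were at least 4-fold higher. Of the 12 smooth muscle partners, of which 5 reached 10 CPM, 3 did so and were at least 4-fold higher, namely Lmod1 at 0.839 and 34.8 CPM, Actg2, and Nexn, an actin-binding protein of the Z disc, at 9.68 and 43.8 CPM. All 3 reached 10 CPM in culture only. Mylk, the kinase that phosphorylates the light chain, had 9.11 and 14.0 CPM, and Smtn, smoothelin, 33.3 and 25.5 CPM. Of the other 7 partners, all under 10 CPM, Itga8, Pln and Ppp1r14a were higher in culture and Des, Synpo2 and Synm lower. Kcnmb1 had 8 and 13 UMIs. Itga8 had 1.94 and 6.69 CPM, and Des, desmin, 0.649 and 0.282 CPM. Of 10 non-muscle actomyosin genes 3 were at least 4-fold higher, Myh9, Myh10 and Tpm4, and of 14 actin crosslinkers and adhesion genes 5 were, Actn1, Flna, Zyx, Tln1 and Csrp2. Flna, filamin A, had the largest ratio among these 14, with 24.6 CPM in primary cells and 338 CPM in cultured cells.

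The regulators were more mixed. None of 9 contraction signalling genes was at least 4-fold higher, and Rhob, a small GTPase, was lower in culture, with 429 CPM in primary cells and 73.4 CPM in cultured cells. Rock1 and Rock2, kinases that promote contraction, had log2 ratios of 0.71 and 1.16. SRF itself had 19.2 CPM in primary cells and 7.10 CPM in cultured cells, a log2 ratio of -1.43. Its cofactors Mrtfa and Mrtfb had log2 ratios of 1.44 and 1.56, and Myocd, the cofactor of cardiac and smooth muscle, had 26 and 98 UMIs, 0.190 and 0.297 CPM. Of the 10 genes of this list 8 reached 10 CPM, of which 2 were at least 4-fold higher. These were Fhl1, at 8.14 and 104 CPM, and Gata6, at 0.999 and 25.3 CPM, and both reached 10 CPM in culture only. Klf4, a repressor of smooth muscle genes, had 758 CPM in primary cells and 216 CPM in cultured cells.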

How the data were processed

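The deposited matrices hold unnormalised UMI counts for every gene and barcode, written by Cell Ranger 7.0.0 as their headers state. The authors aligned reads to GRCm38. The submitters' processing notes also name GRCm39. Gene positions came from GENCODE M21 (GRCm38) by gene identifier. Counts were summed over the kept cells, 137148874 UMIs for primary and 330129909 for cultured cells, and scaled to CPM. A ratio raised counts under 3 to 3. Intervals were exact (Poisson, Clopper-Pearson, conditional) at 95%. Clusters came from the Leiden method (leidenalg 0.10.2, scanpy 1.11.5) at resolution 0.5 on 20 neighbours in 10 components of 2000 variable genes. A mixed cluster of at least 100 cells was divided again with 10 neighbours and resolution 1.0, a step added after the data were seen. A cluster took the name of a class with at least 3 of its markers at 50 CPM and 4-fold over the other cells and at least 1 among its 10 leading genes. Scrublet's automatic threshold called 0 primary and 1 cultured doublet and had not worked, so doublets were kept, and leaving out the 1118 primary and 461 cultured cells with the highest scores was an alternative. TMM factors came from edgeR 4.0.16. The named genes are the 10 members, list genes with at least 10 CPM, the 8 genes most and the 4 least like the members, and leading cluster genes, some of which are not reported here. The smooth muscle partners and sarcomere genes under 10 CPM, Myocd and ZsGreen were named after their values were seen. The members and lists were chosen with earlier results of these data known. Scripts were tested on simulated data.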

Additional observations from a re-analysis of the deposited data

Results flagged for a closer look

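Contractile gene UMIs were also present in the barcodes that failed the cell filter and entered no comparison. The 5460 such cultured barcodes held 45630 UMIs of the 10 genes, 0.725% of their 6298068 UMIs, against 0.796% in the kept cultured cells. The 150 such primary barcodes held 200 UMIs of the 10 genes, 0.0952% of theirs. Acta2 stood at 955 CPM and Cald1 at 3351 CPM in the left-out cultured barcodes.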

How the results depend on the processing

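The count of members at least 4-fold higher was 8 under all 11 alternative cell sets and scalings and with a minimum of 1 CPM, and 10 at 2-fold, where 27.2% of all genes also passed. Of 110 values, the ratio of each of the 10 genes under 11 alternatives, 109 were above 0 on the log2 scale, and Myh11 without the 178 cultured cells with high Ptn and Thy1 was at -0.089 (0.32 without them and the 290 other primary cells). The median log2 ratio was 3.13 with TMM scaling, 3.01 without those 178 cells and 3.05 without them and the 290 other primary cells. The median correlation of the cultured pairs was 0.199 at 2000 UMIs per cell, a setting with fewer counts. That of the primary pairs was 0.080, 0.016 without the mural-like cells and 0.019 without the cell with most Myh11 UMIs. The share of Myh11 UMIs from mural-like cells was 24.1 to 26.9% under 3 alternatives, and could not be given at resolution 1.0. The alternatives that leave out clusters, shared barcodes or cells under 5000 UMIs were chosen after seeing the data. No paired analysis was possible because each group had 1 library. Depth limits Myh11 and Cnn1 in primary cells, with 145 and 817 UMIs.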

Other observations

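The few primary fibroblast-like cells were 178 in number, with 1408393 UMIs. They lay nearer the cultured library than the primary library as a whole did for 8 of the 10 members, and farther for Acta2 and Cnn1. Myh11, among the 8, had 2 UMIs in them. How many of all genes lay nearer was not counted, so the 8 do not set the members apart from other genes. Cald1 stood at 746 CPM in them, Cnn2 at 136 CPM, Myl9 at 104 CPM and Tpm2 at 135 CPM. The log2 ratio of the cultured library over these cells was 0.73 for Myl9, with an interval of 0.49 to 0.97, 1.29 for Cnn2, 1.93 for Tpm2 and 1.95 for Cald1. Acta2 stood at 44.7 CPM in the fibroblast-like cells, a log2 ratio of 4.78. Of these cells, 44 formed a cluster with 8 of 12 cartilage markers at 1000 CPM or more. In the other 134, Cald1 stood at 1011 CPM, Tpm2 at 196 CPM, Cnn2 at 187 CPM, Myl9 at 151 CPM and Acta2 at 25.9 CPM. The log2 ratio of the cultured library over them was 0.18 for Myl9, with an interval of -0.09 to 0.46, 1.52 for Cald1 and 5.57 for Acta2, and Cnn1 and Myh11 had 1 UMI each. These cells were singled out after the values of the clusters were seen.

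The genes of striated muscle did not all move in 1 direction. Of 12 sarcomere genes 3 had at least 10 CPM, and none of these 3 rose 4-fold in culture. At any level, 3 of the 12 were at least 4-fold lower in culture and 1 at least 4-fold higher. The lower ones were Tnnt3, Tnni2, at 3.35 and 0.636 CPM, and Actc1, at 0.204 and 0.0363 CPM. Myl1, the higher one, had 2 and 31 UMIs. Only Tnnt3 of these reached 10 CPM. Tpm3, also in the non-muscle list, had 159 CPM in primary cells and 299 CPM in cultured cells, a log2 ratio of 0.91. Acta1 was nearly level, with a log2 ratio of 0.04. Tnnt3, fast skeletal troponin T, had 291 CPM in primary cells and 10.1 CPM in cultured cells, a log2 ratio of -4.85. A fall of that kind, 4-fold or more, was seen for 5.73% of all 9115 genes. In primary cells Ckm, Ttn and Myh3 had 8, 45 and 77 UMIs, so the level of Tnnt3 does not stand for the list. The log2 ratio was -1.56 for Myh3, with an interval of -2.06 to -1.06, and -0.09 for Ttn. For Ckm it was -1.46, with an interval of -3.16 to 0.20. The muscle determination factor Myod1 had 15 and 39 UMIs, and Pax7, a marker of muscle stem cells, 7 and 1 UMIs.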
